A study of Mus musculus with 6 samples.

Results

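The IFIT and OAS genes are 2 families of interferon-induced antiviral genes, here represented by 4 IFIT genes (Ifit1, Ifit2, Ifit3 and Ifit3b) and 6 OAS genes (Oas1a, Oas1g, Oas2, Oas3, Oasl1 and Oasl2). They were taken by symbol, in a choice made with earlier results of these data known. All 10 were found among the 52550 mouse genes measured. RNA was sequenced from colon epithelial cells of male mice of the Apc Min/+ strain, which carry a heterozygous truncating mutation of the tumour suppressor gene Apc and develop intestinal adenomas. The atorvastatin group (3 libraries) was gavaged with the statin at 20 mg/kg on alternate days, and the control group (3 libraries) with the vehicle, 2% Tween 80. All mice, in both groups, were of the Apc Min/+ genotype and 5 to 6 weeks old. The length of treatment, the separation of adenoma from normal mucosa and the number of animals per library are not given in the sources used here, so p-values measure the spread between these libraries, which may be partly technical.

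Interferons of type I and type III are secreted proteins that warn cells of viral infection. Their receptors act through Janus kinases on a transcription factor complex that includes STAT2 and IRF9, enters the nucleus and switches on genes that carry an interferon-stimulated response element (ISRE). IFIT proteins bind viral RNA and block its translation. OAS enzymes sense double-stranded RNA and make short 2′-5′-linked adenylate chains, a signal that leads to the degradation of RNA. Baseline expression of such genes in the intestinal epithelium is known to depend on type III interferon.

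The families lie in tandem clusters, with coordinates from GENCODE release M21 on GRCm38, the assembly that mm10 denotes. The 4 IFIT genes occupy 99.3 kilobases of chromosome 19, all on the plus strand: Ifit2 at 34550694 to 34576419, Ifit3 at 34583531 to 34588731, Ifit3b at 34607970 to 34613401 and Ifit1 at 34640871 to 34650009. On chromosome 5, Oas2 (120730333 to 120749853), Oas3 (120753098 to 120777661), Oas1g (120876142 to 120887613) and Oas1a (120896256 to 120907521) occupy 177 kilobases of the minus strand. Oasl2 (114896936 to 114912234) and Oasl1 (114923240 to 114937915) form a separate pair on the plus strand. Of the 10 genes, Oasl1 alone shared exons with another annotated gene, the antisense gene Gm13822, which was listed at 0.438 FPKM or less in every library.

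Promoter windows from RefSeq (GRCm38.p6, 250 bases before to 50 bases after each start) were found for 9 of the 10 genes, and Oas2 had none. The core letters of the ISRE, searched as GAAA, any 2 bases and GAAA again on either strand, stood in the window of 6 of the 9 (Ifit1, Ifit3, Ifit3b, Oas1a, Oas1g and Oas3), against 3.44% of all 32851 windows. No match was found in the windows of Ifit2, Oasl1 and Oasl2, which says only that these letters are absent there. The stretches with a match are printed because they show how alike the members are in front of their starts. Each is written 5′ to 3′ on the strand of its gene, with the matching letters in capitals (overlapping matches run together).
Ifit1, chr19:34640769-34640828: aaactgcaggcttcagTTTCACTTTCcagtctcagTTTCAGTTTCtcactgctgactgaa
Ifit3, chr19:34583358-34583427: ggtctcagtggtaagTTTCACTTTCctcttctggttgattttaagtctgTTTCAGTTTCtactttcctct
Ifit3b, chr19:34607754-34607823: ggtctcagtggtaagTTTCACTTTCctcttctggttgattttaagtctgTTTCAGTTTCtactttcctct
Oas1a, chr5:120907526-120907585: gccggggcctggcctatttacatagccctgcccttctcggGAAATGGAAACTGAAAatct
Oas1g, chr5:120887616-120887671: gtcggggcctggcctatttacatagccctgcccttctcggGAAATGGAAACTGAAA
Oas3, chr5:120777700-120777759: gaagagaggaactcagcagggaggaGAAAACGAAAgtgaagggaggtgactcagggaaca
The stretches of Ifit3 and Ifit3b were the same at 70 of 70 bases, and those of Oas1a and Oas1g at 55 of 56. The matches ended 76 to 179 bases before the start in the IFIT genes, and 3 to 11 bases before it in Oas1a and Oas1g. The letters of the gamma-activated site, an element of the interferon-gamma response, TTCNNNGAA, stood in the windows of 2 of the 9 genes (Ifit2 and Oas1a), and in 8.3% of all windows.

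**Figure D1:**
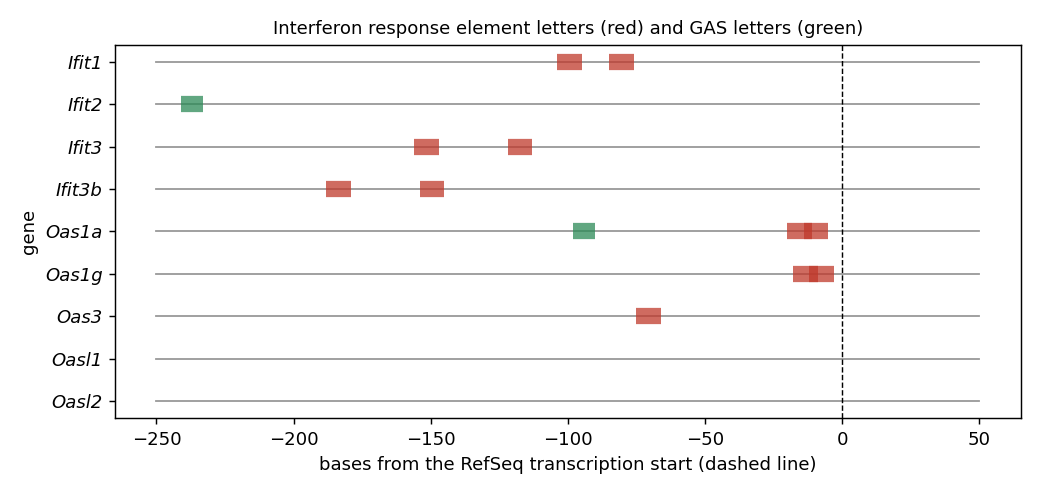
Position of each match in the 300-base promoter windows of 9 genes, in bases from the RefSeq transcription start (dashed line at 0). Red blocks are matches to the ISRE letters, green blocks to the gamma-activated site letters; Oasl1 and Oasl2 have neither.

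The values were FPKM (fragments per length of gene, relative to all mapped fragments of the library), so levels of different genes are compared per length. The libraries listed 11456 to 11655 genes at 1 FPKM or more. Sequencing depth is unknown; the commonest non-zero value of short genes placed the libraries between 0.996 and 1.14 relative to control replicate 1. The 11644 genes that reached 1 FPKM in 3 or more of the 6 libraries were tested, and atorvastatin was compared with control by limma on log2(FPKM + 1), a scale that understates changes of low genes. Adjusted p-values are Benjamini-Hochberg over all tested genes, with a threshold of 0.05, and ± after a fold change is its standard error. Over all genes 0.404% were called, 18 higher and 29 lower (15 and 39 with the abundant and mitochondrial genes left out before scaling). The median log2 fold change of all tested genes was 0.02.

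With atorvastatin, every one of the 10 IFIT and OAS genes had a lower mean, and 9 of them had all 3 atorvastatin libraries below all 3 control libraries. Over all tested genes, 42.7% had a negative fold change 6.05% were lower without overlap and 12% were higher without overlap. The median log2 fold change of the 10 genes was -1.12, with a range of -1.47 to -0.53. Only Ifit2 passed the adjusted test, 1 of 10 genes, where 0.249% of all tested genes were called lower. At an unadjusted p under 0.05 in limma's test, 9 of the 10 were lower, against 4.27% of all tested genes (7.75% were higher). All 10 passed the filter on low values, Ifit3b through the control group, since 1 of its 3 atorvastatin libraries reached 1 FPKM. In bulk RNA of this kind, fewer cells that express a gene and less RNA of it per cell cannot be told apart.

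**Figure D2:**
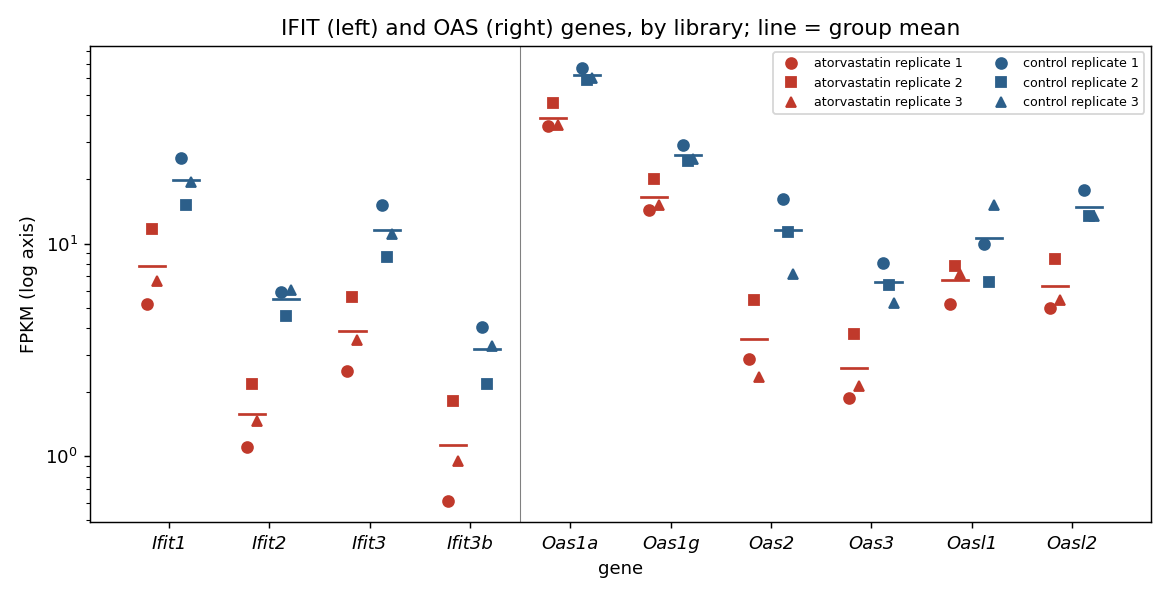
FPKM of each gene (log axis) in the 3 atorvastatin libraries (red, left of each pair) and the 3 control libraries (blue), with lines at group means. The groups are apart in 9 genes and overlap in Oasl1, where atorvastatin spans 5.22 to 7.88 FPKM and control 6.59 to 15.2 FPKM.

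The 4 IFIT genes had log2 fold changes of -1.39 to -0.99, with a median of -1.31. Ifit2, whose protein binds RNA and restricts viral translation, was at 1.11, 2.20 and 1.46 FPKM in atorvastatin replicates 1, 2 and 3, against 5.90, 4.58 and 6.02 FPKM in control replicates 1, 2 and 3. The lowest control library was thus 2.38 FPKM above the highest atorvastatin library. Ifit2 fell, with a log2 fold change of -1.34 ± 0.16 (95% interval -1.73 to -0.96, limma adjusted p = 0.029). The call of Ifit2 held without atorvastatin replicate 2 (limma adjusted p = 0.0142) and was lost without atorvastatin replicates 1 and 3 (0.0659 and 0.123) and without control replicates 1, 2 and 3 (0.115, 0.0541 and 0.0607).

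Ifit1, which recognises the 5′ end of foreign RNA, was at 5.20, 11.7 and 6.65 FPKM in the atorvastatin libraries, against 25.2, 15.2 and 19.5 FPKM in the control libraries. It was the most abundant IFIT member in both groups, and its groups did not overlap. Its log2 fold change was -1.29 ± 0.29 (95% interval -1.99 to -0.58, limma adjusted p = 0.163).

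The human counterpart of Ifit3 stabilises human IFIT1 and promotes its binding to RNA. Mouse Ifit3 was at 2.51, 5.63 and 3.53 FPKM with atorvastatin, against 15.2, 8.68 and 11.1 FPKM in control. Its mean with atorvastatin was 33.5% of the control mean, and its log2 fold change stood at -1.39 ± 0.27 (limma adjusted p = 0.114). Ifit3b, a near-copy of Ifit3, had the lowest level of the family, at 0.619, 1.82 and 0.947 FPKM with atorvastatin against 4.04, 2.18 and 3.31 FPKM in control. The gap between its groups was 0.361 FPKM, and its log2 fold change was -0.99 ± 0.24 (limma adjusted p = 0.183). In Ifit1, Ifit3 and Ifit3b alike, the highest atorvastatin library was replicate 2 and the lowest control library was replicate 2.

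The OAS genes had a median log2 fold change of -0.88, and none of the 6 passed limma's adjusted test. At an unadjusted p under 0.05 in limma's test, 5 of 6 were lower, against 4.27% of all tested genes. Oas1a and Oas1g, which encode small synthetases with a single catalytic unit, were the most abundant of all 10 members. Oas1a was at 35.5, 45.7 and 36.0 FPKM with atorvastatin, against 67.1, 58.5 and 60.3 FPKM in control. The 2 groups were 12.8 FPKM apart, and the log2 fold change of Oas1a was -0.66 ± 0.11 (95% interval -0.91 to -0.41, limma adjusted p = 0.065). Oas1g was at 14.4, 20.2 and 15.1 FPKM with atorvastatin, against 28.9, 24.3 and 24.9 FPKM in control, and its log2 fold change stood at -0.63 ± 0.13 (limma adjusted p = 0.114). The mean with atorvastatin was 63.0% of the control mean for Oas1a and 63.6% for Oas1g.

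Oas2 and Oas3, larger proteins built of repeated OAS units, had lower levels per length than the Oas1 genes and more negative fold changes, a difference between genes that was not tested. Oas2 was at 2.85, 5.40 and 2.36 FPKM with atorvastatin, against 16.3, 11.3 and 7.19 FPKM in control. Its control libraries were widely spread, and its log2 fold change was -1.47 ± 0.33 (95% interval -2.27 to -0.66, limma adjusted p = 0.164). That was the most negative of the 10 on the log2(FPKM + 1) scale. With 0.1 added to FPKM in place of 1, Ifit2 was more negative (-1.77, against -1.70 in Oas2). Oas3 was at 1.88, 3.77 and 2.14 FPKM with atorvastatin, against 8.07, 6.36 and 5.25 FPKM in control, and its log2 fold change stood at -1.09 ± 0.22 (limma adjusted p = 0.115). In both genes control replicate 3 was the lowest control library, and it still lay above every atorvastatin library. Oas1a and Oas1g together made up 77.0%, 72.0% and 74.9% of the summed FPKM of the 6 OAS genes in the atorvastatin libraries, against 64.8%, 68.7% and 67.5% in the control libraries. These shares did not overlap, which is given as a description.

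The OAS-like genes differed from each other. Oasl2, which in the mouse encodes an active synthetase with a ubiquitin-like tail, was at 4.96, 8.49 and 5.44 FPKM with atorvastatin, against 17.8, 13.5 and 13.5 FPKM in control. Its log2 fold change was -1.14 ± 0.19 (95% interval -1.60 to -0.68, limma adjusted p = 0.0787), without overlap. Oasl1, which in the mouse lacks synthetase activity and represses translation of Irf7, was at 5.22, 7.88 and 7.17 FPKM with atorvastatin, against 9.98, 6.59 and 15.2 FPKM in control. It was the only member whose groups overlapped, with 1 atorvastatin library below the lowest control library. The 95% interval of its log2 fold change, -0.53 ± 0.28, ran from -1.20 to 0.15 (limma adjusted p = 0.532), which holds no change as well as a fall of the size seen in Oasl2. The difference between Oasl1 and Oasl2 was not tested.

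In order of level, Oas1a was highest and Oas1g next in both groups. With atorvastatin, Oas1a (35.5 to 45.7 FPKM) and Oas1g (14.4 to 20.2 FPKM) stood apart from each other and from the rest, and from Ifit1 down to Ifit3b each gene overlapped the next. In control, Oas1a stood apart (58.5 to 67.1 FPKM) and Oas1g overlapped Ifit1. Ifit3b was lowest in both groups, and in control its highest library (4.04 FPKM) lay below the lowest of Ifit2 (4.58 FPKM). By mean, Oasl1 ranked 4 of 10 with atorvastatin and 7 of 10 in control.

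The members varied together between libraries of the same treatment. In all 10 genes atorvastatin replicate 2 was the highest of the atorvastatin libraries, and replicate 1 was the lowest in 9, with Oas2 the exception (replicate 3). The median difference of the 10 genes from the control mean, on the log2(FPKM + 1) scale, was -1.39, -0.67 and -1.27 in atorvastatin replicates 1, 2 and 3, against 0.26, -0.17 and -0.04 in control replicates 1, 2 and 3. Control replicate 1 was the highest control library in 8 genes and control replicate 3 in Ifit2 and Oasl1. Control replicate 2 was the lowest in 7 genes. With atorvastatin replicate 2 left out, 5 members passed limma's adjusted test: Ifit2, Oas1a (adjusted p = 0.0222), Oas1g (0.0343), Oas3 (0.0379) and Oasl2 (0.0199). In that fit 61 of the 11644 tested genes were called, 51 of them lower. With any other library left out no member passed in limma's adjusted test, while 9 or 10 of 10 had an unadjusted p under 0.05. In these fits 1043 to 1468 of the 11644 tested genes had such a p, in either direction.

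**Figure D3:**
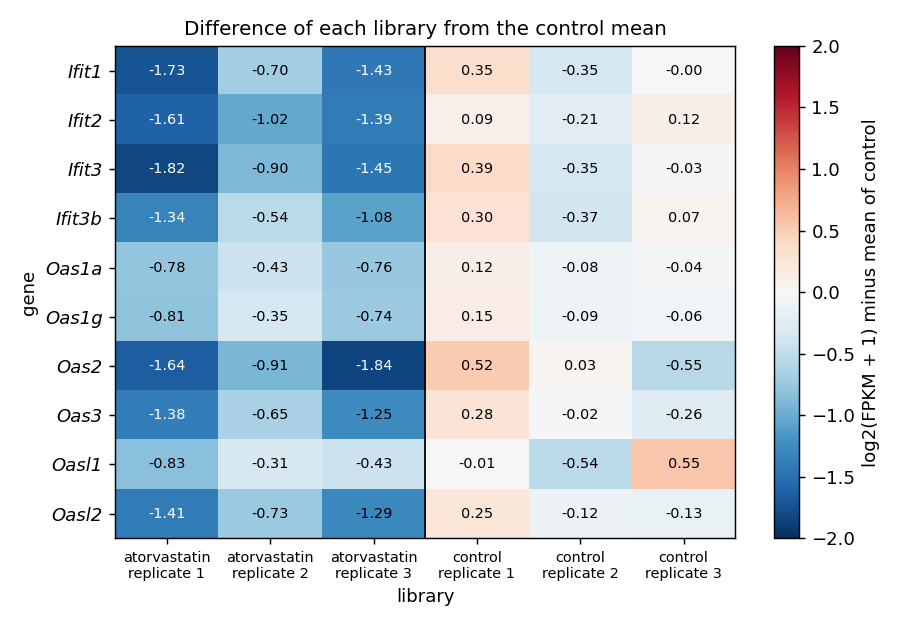
Difference of each library from the control mean on the log2(FPKM + 1) scale, for the 10 genes (rows) in 3 atorvastatin and 3 control libraries (columns). Every atorvastatin value is negative, and the column of atorvastatin replicate 2 is the palest of the 3.

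Close copies limit how far single members can be read. The coding sequences of Ifit3 and Ifit3b were 99.1% identical, and 51.2% of all stretches of 50 bases in the Ifit3 transcript also occurred in that of Ifit3b. For Oas1a and Oas1g the coding identity was 96.8%, and 56.9% of the stretches in Oas1a occurred in Oas1g. How the authors assigned reads that match both copies is not given in the sources used here, so the split within each pair is uncertain. The ratio of Ifit3 to Ifit3b was 4.05, 3.09 and 3.73 in the atorvastatin libraries, against 3.75, 3.97 and 3.34 in the control libraries. That of Oas1a to Oas1g was 2.47, 2.26 and 2.38 with atorvastatin, against 2.32, 2.41 and 2.42 in control. Both ratios overlapped between the groups. No other pair of members shared a stretch of 50 bases.

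The remaining paralogs in the mouse clusters had negative fold changes where they could be tested. Ifit1bl1, an Ifit1-like gene inside the IFIT cluster, was more abundant than any IFIT member, at 19.9, 36.3 and 23.3 FPKM with atorvastatin, against 77.4, 44.9 and 57.99 FPKM in control. Its groups did not overlap, and its log2 fold change was -1.16 ± 0.27 (limma adjusted p = 0.164). Ifit1bl2 starts 128 bases from Ifit1 on the opposite strand, so that the ISRE matches printed for Ifit1 lie between the starts of both genes. It was at 1.65, 1.93 and 2.23 FPKM with atorvastatin, against 3.45, 2.80 and 2.64 FPKM in control, and its log2 fold change stood at -0.43 ± 0.11 (limma adjusted p = 0.168). The ratio of Ifit1 to Ifit1bl2 was 3.15, 6.04 and 2.98 in the atorvastatin libraries, against 7.32, 5.41 and 7.40 in the control libraries. This ratio overlapped between the groups. Of the stretches of 50 bases in the Ifit1 transcript, 7.06% also occurred in that of Ifit1bl2, so this split is uncertain too. Oas1b and Oas1c, the other tested paralogs, had log2 fold changes of -0.62 and -0.15, with groups that overlapped (limma adjusted p = 0.318 and 0.716). Oas1d and Oas1h were listed at 0.117 FPKM or less in every library, and Oas1e and Oas1f at 0. Of the 4 tested paralogs none passed limma's adjusted test, and 3 were lower at an unadjusted p under 0.05, against 4.27% of all tested genes. Oas1b, 1 of these 3, passed the filter on low values through the control group, with 1 atorvastatin library at 1 FPKM or more.

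Along the interferon pathway, ligands were listed at or near 0 FPKM and receptor genes had fold changes near 0, while the transcription factor gene Irf9 and 4 other antiviral genes fell. Of the 13 interferon genes on the list, 9 were listed at 0 in all 6 libraries, among them Ifnb1 and the 5 listed Ifna genes, and none passed the filter. Ifng, the type II interferon of T and NK cells, was the highest, at 0.265, 0.119 and 0.300 FPKM with atorvastatin, against 0.400, 0.360 and 0.449 FPKM in control. Its groups did not overlap. Nor did those of Ifnk, at 0 in every atorvastatin library against 0.0575, 0.112 and 0.0195 FPKM in control. Both genes were too low to be tested. The type III interferon genes Ifnl2 and Ifnl3 did not exceed 0.115 FPKM in any library. Their means were higher with atorvastatin, with groups that overlapped.

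None of the 8 tested receptor and Janus kinase genes passed limma's adjusted test. At an unadjusted p under 0.05 in limma's test, 2 were lower (Jak1 and Il10rb), against 4.27% of all tested genes. Tyk2 (-0.13) and Ifngr1 (-0.07) came next by p. The log2 fold changes of all 8 lay between -0.13 and 0.04, with a median of -0.06. Ifnlr1, the specific chain of the type III receptor, was at 4.15, 4.16 and 3.605 FPKM with atorvastatin, against 3.97, 3.59 and 3.99 FPKM in control (95% interval of the log2 fold change -0.13 to 0.20). Ifnar1, of the type I receptor, was at 4.84, 5.32 and 5.36 FPKM with atorvastatin, against 5.31, 5.33 and 5.53 FPKM in control (95% interval -0.19 to 0.09). Its partner Ifnar2 was listed at 0.598 FPKM or less in every library and was not tested.

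The log2 fold change was below 0 in all 8 tested transcription factor genes (median -0.34). Irf9, the DNA-binding part of the complex, fell to 6.33, 7.57 and 6.80 FPKM with atorvastatin, against 10.4, 10.7 and 10.04 FPKM in control (log2 fold change -0.53 ± 0.07, limma adjusted p = 0.0334). Its groups did not overlap. Stat2, another part of the complex, and Irf7, which amplifies interferon production, did not pass, at -0.53 and -0.59 on the log2 scale (limma adjusted p = 0.258 and 0.072). Irf1, Irf2, Irf3 and Irf8 had fold changes between -0.16 and -0.004.

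Among 5 tested feedback inhibitors, none passed limma's adjusted test. At an unadjusted p under 0.05 there was 1 lower (Usp18) and 1 higher (Socs3), against 4.27% lower and 7.75% higher of all tested genes. Usp18, an interferon-induced protease that removes ISG15 and blocks the type I receptor, was at 0.985, 2.81 and 1.16 FPKM with atorvastatin, against 4.94, 3.98 and 4.39 FPKM in control (log2 fold change -1.10 ± 0.24, limma adjusted p = 0.148). Socs3, which inhibits cytokine receptors, was at 11.4, 9.24 and 10.6 FPKM with atorvastatin, against 7.99, 7.74 and 9.81 FPKM in control, and its groups overlapped (limma adjusted p = 0.377).

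In all 7 tested sensors and editors of double-stranded RNA the log2 fold change was negative (median -0.28), and none passed limma's adjusted test. At an unadjusted p under 0.05 in limma's test, 5 were lower, against 4.27% of all tested genes. Dhx58, a regulator of RNA sensing, had the smallest p of the list, at 3.76, 5.39 and 3.94 FPKM with atorvastatin, against 9.04, 7.06 and 7.51 FPKM in control (log2 fold change -0.73 ± 0.13, limma adjusted p = 0.0824). Ddx58, which encodes the sensor RIG-I, stood at -0.46 ± 0.09 (limma adjusted p = 0.101), the editing enzyme gene Adar at -0.33 (0.213) and Ifih1, which encodes the sensor MDA5, at -0.28 (0.248). Eif2ak2, the RNA-activated kinase PKR, was at 13.02, 15.9 and 13.4 FPKM with atorvastatin, against 16.6, 15.4 and 15.9 FPKM in control, with groups that overlapped.

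Of the genes that act on the products of the OAS enzymes or downstream of them, Abce1 and Pde12 had overlapping levels in the 2 groups. Pde12, which degrades the adenylate chains, was at 3.92, 3.69 and 3.73 FPKM with atorvastatin, against 3.86, 3.70 and 4.06 FPKM in control. Its log2 fold change was -0.03 (95% interval -0.16 to 0.11). Abce1, an ATP-binding protein that also recycles ribosomes, had a log2 fold change of 0.02 (95% interval -0.17 to 0.22). Neither gene passed limma's test, adjusted or unadjusted.

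Of 20 other interferon-induced antiviral genes, the log2 fold change was negative in 19 and its median was -0.65, and 4 passed the adjusted test, all lower. Ifi44 (log2 fold change -1.43 ± 0.18), the dynamin-like GTPase gene Mx1 (-0.96 ± 0.14), the chaperone gene Rtp4 (-0.84 ± 0.08) and the nucleic acid sensor gene Zbp1 (-0.81 ± 0.08) fell, with limma adjusted p of 0.0334, 0.0477, 0.0184 and 0.0193. Cmpk2 (-0.66), Xaf1 (-0.78), Parp9 (-0.46) and Ifi35 (-0.52) came next by p and did not pass (limma adjusted p = 0.0572, 0.0586, 0.0626 and 0.0800). Isg15, a ubiquitin-like modifier, was at 8.37, 19.1 and 9.99 FPKM with atorvastatin, against 40.99, 24.2 and 30.8 FPKM in control (log2 fold change -1.34 ± 0.32, limma adjusted p = 0.173). Isg20, an exonuclease gene, was the exception in direction, at 0.09 ± 0.12. Of the 6 called genes of the pathway lists, none remained called with atorvastatin replicates 1 or 3 or control replicate 1 left out. In these fits 28 or 29 of the 55 tested list genes had an unadjusted p under 0.05 in limma's test. Over all 11644 tested genes, 1043 to 1170 had such a p, in either direction. Without control replicates 2 and 3 the counts of called list genes were 1 and 2, and without atorvastatin replicate 2 the count was 15.

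**Figure D4:**
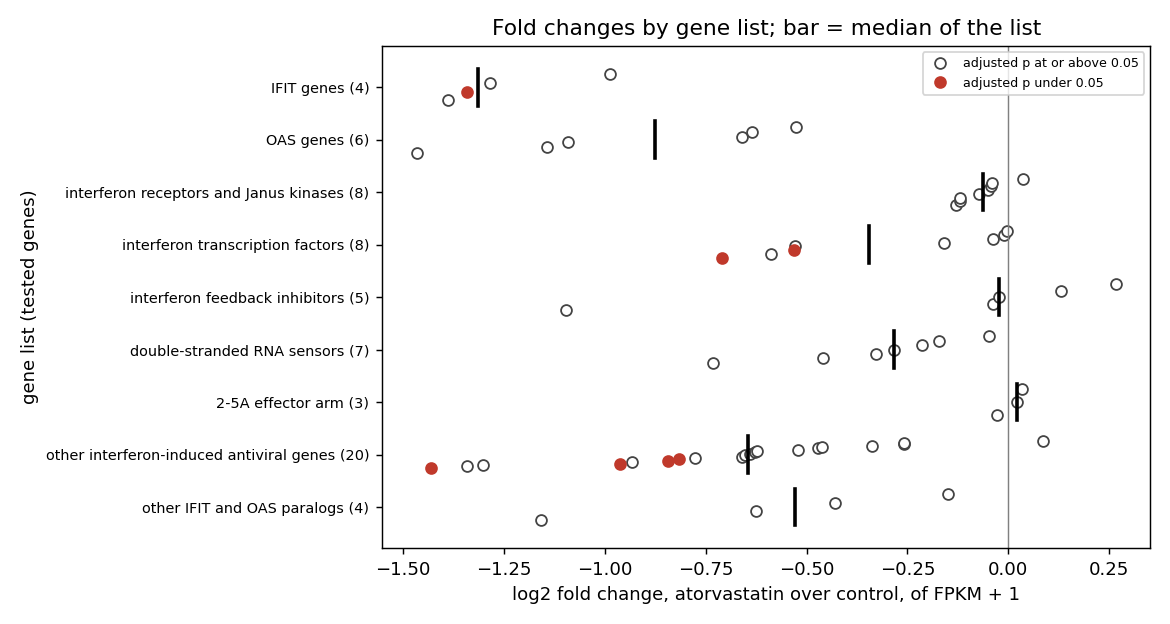
Log2 fold changes of atorvastatin over control (log2(FPKM + 1) scale) for the tested genes of each list, with filled red points for adjusted p under 0.05 and a bar at the list's median. The IFIT and OAS medians lie at -1.31 and -0.88, the receptor list and the effector list (2-5A) near 0.

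The genes most like the members over the 6 libraries were found by the root-mean-square distance between mean-centred log2(FPKM + 1) profiles. Closest to the mean IFIT profile were Ifit1bl1 (distance 0.076), Isg15 (0.12), the apolipoprotein L gene Apol9b (0.141), Usp18 (0.151) and the Schlafen gene Slfn4 (0.161). Closest to the mean OAS profile were Trim30a (0.070), Ddx60 (0.085), Igtp (0.085), Lgals9 (0.095) and Mx1 (0.098). The distances are in log2 units and follow the difference between groups as well as that between libraries. Apol9b, for example, was at 1.76, 4.85 and 2.69 FPKM with atorvastatin, with replicate 2 the highest as in the members, against 8.48, 6.11 and 6.82 FPKM in control.

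Of 50 markers of other cell types, 41 had a lower mean with atorvastatin. None of the 16 that could be tested passed limma's adjusted test, while 12 had an unadjusted p under 0.05. Over all 11644 tested genes, 1399 had such a p, in either direction, and 42.7% had a negative fold change. Some of the 16 tested markers passed the filter on low values mainly through the control group, with 0 or 1 atorvastatin libraries at 1 FPKM or more. That route favours genes that are lower with atorvastatin, so the 2 counts are not a like comparison. Epithelial markers were abundant in every library, with a summed level of 9348 to 10740 FPKM with atorvastatin against 9733 to 10730 FPKM in control. All 11 were tested, 8 had a lower mean with atorvastatin and 0 had an unadjusted p under 0.05 in limma's test. All 15 T and NK cell markers had lower means with atorvastatin, with a summed level of 14.1, 16.5 and 20.1 FPKM, against 36.3, 35.1 and 20.1 FPKM in control. The T and NK cell sums of the groups overlapped, at control replicate 3 (20.08 FPKM) and atorvastatin replicate 3 (20.11 FPKM). The summed level was 9.44, 21.3 and 12.6 FPKM with atorvastatin, against 50.3, 30.6 and 39.9 FPKM in control, for the IFIT genes, and 64.8, 91.4 and 68.2 against 148, 121 and 126 FPKM for the OAS genes.

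The B and plasma cell list summed to 2.85, 3.35 and 2.58 FPKM with atorvastatin, against 10.7, 11.5 and 5.13 FPKM in control, with 4 of 8 genes lower in mean and Ms4a1, Cd79a, Cd79b and Mzb1 below 0.5 FPKM throughout. All 8 macrophage and dendritic cell genes had lower means, with sums of 2.96, 2.48 and 2.56 FPKM with atorvastatin, against 4.99, 7.06 and 3.73 FPKM in control, and Adgre1, Csf1r, Cx3cr1, Flt3 and Siglech, the last a marker of the plasmacytoid cells known for interferon secretion, stayed below 0.5 FPKM in every library. Mast cell genes summed to 9.30, 10.1 and 8.24 FPKM with atorvastatin, against 23.2, 25.1 and 13.1 FPKM in control (4 of 5 lower in mean). Most of the atorvastatin sums came from Kit, with a mean of 7.16 FPKM with atorvastatin against 7.145 FPKM in control. The sums thus understate how much lower the other 4 genes were. In these 3 lists every control library, replicate 3 included, lay above every atorvastatin library. The neutrophil genes summed to 16.4, 23.98 and 18.2 FPKM with atorvastatin, against 40.5, 19.5 and 20.1 FPKM in control (4 of 5 lower in mean), with an overlap between the groups. Nearly all of these sums came from Ly6g, while S100a8, S100a9, Mpo and Csf3r stayed below 0.5 FPKM. Atorvastatin replicate 2 had the highest sum of its group for the B and plasma cell, neutrophil and mast cell lists, and not for the T and NK cell or the macrophage and dendritic cell list. Fibroblast (4 of 5 lower in mean) and endothelial (2 of 4 lower in mean) markers overlapped between the groups and summed to 0.722 FPKM or less in every library, and the endothelial gene Kdr was listed at 0. The mitochondrial ribosomal RNA mt-Rnr1 was at 1195, 1160 and 1526 FPKM with atorvastatin, against 2156, 2631 and 1828 FPKM in control (limma adjusted p = 0.115). The part of these cell types and of mitochondrial RNA in the levels of the IFIT and OAS genes was not tested.

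**Figure D5:**
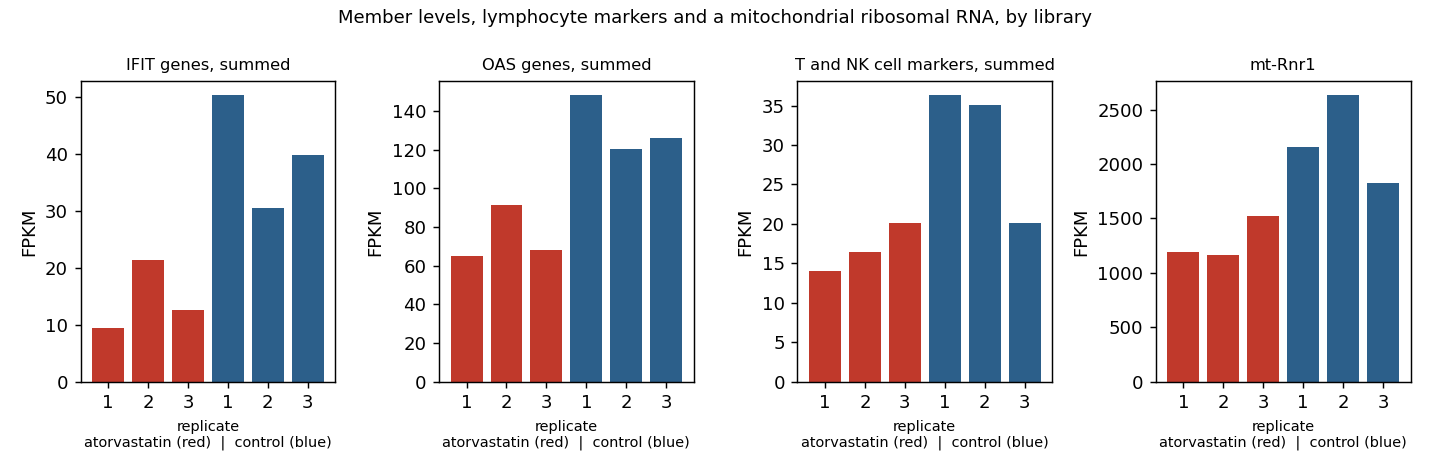
FPKM in each of the 3 atorvastatin (red) and 3 control (blue) libraries, for the summed IFIT genes, the summed OAS genes, the summed T and NK cell markers and mt-Rnr1 (bars start at 0). The groups are apart in the IFIT sums, the OAS sums and mt-Rnr1, and meet in the T and NK cell sums, where control replicate 3 and atorvastatin replicate 3 are both at 20.1 FPKM.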

How the data were processed

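RNA-seq values of 6 libraries were used as deposited by the authors, 1 FPKM value per gene and library. No header names the unit; values that are not whole and library totals that differ (407857 to 430832) go with neither counts nor TPM. The submitters' processing notes name FastQC 0.11.2, Bowtie and mm10. The quantification tool, annotation, strand setting and treatment of shared reads are not given in the sources used here. A gene name table matched 99.72% of identifiers; coordinates and transcripts were those of GENCODE M21 and promoters those of RefSeq. limma 3.58.1 in R 4.3.3 (trended, robust, two-sided) was fitted to log2(FPKM + 1) of every gene that reached 1 FPKM in 3 libraries or more, after a check on simulated data. No count model or counting interval was used. The members, gene lists and tests were chosen with earlier results of these data known. Named were all members, from each pathway list the called genes and up to 4 more with the smallest p, and the 5 genes nearest to each family's mean profile. Some genes that this rule would name are not reported here. Outside this rule, the interferon genes, Ifnlr1, Ifnar1, Ifnar2, Irf2, Irf8, Eif2ak2, Isg20, Oas1d, Oas1e, Oas1f, Oas1h and mt-Rnr1 were named after their values were seen. Alternatives were other pseudocounts, filters, scalings and a plain variance prior, a replicate block, and each library left out.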

Additional observations from a re-analysis of the deposited data

How the results depend on the processing

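The direction of all 10 members was negative under every alternative that could be fitted (16, or 15 for Ifit2 and Ifit3b, which a filter of 5 FPKM removed). All-gene calls, 47 as reported, were 2 with no filter on low values and 1 with a replicate block, and ran from 7 to 72 with a library left out. Members called, 1 as reported, were 0 with no filter and 0 with a filter of 5 FPKM, 2 with quantile normalization, 2 after scaling by median ratios (Oas1a beside Ifit2 in both), 0 with the replicate block, and 0 to 5 with a library left out. At an unadjusted p under 0.05 in limma's test the members numbered 9 of 10 with no filter, 7 of 8 with a filter of 5 FPKM and 9 of 10 with the block. Over all tested genes, in either direction, these numbers were 2231 of 28981, 762 of 6697 and 1070 of 11644. Called genes of the pathway lists, 6 as reported, were 3 with pseudocount 0.1, 0 with no filter and 0 with the replicate block. They ran from 0 to 15 with a library left out. At an unadjusted p under 0.05 in limma's test the list genes numbered 34 of 64 with no filter and 30 of 55 with the block. No filter adds low genes to the adjustment and the block uses up degrees of freedom. The filter of 5 FPKM took out Ifit2, the only member called, before any test. Otherwise the cause was not tested. Equal replicate numbers did not pair the libraries: correlations of their deviations from the group means ran from -0.139 to 0.0136, and 0 of 6 libraries correlated best with their own number. Depth is unknown, so the precision of members near 1 FPKM, such as Ifit3b and Ifit2, is known only from the spread between libraries.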
